A study of Mus musculus with 6 samples.

Results

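DNA ends were described in the bodies of 9 genes that encode transcription factors of forebrain neurons: Foxp1, Foxp2, Sox5, Bcl11a, Bcl11b, Mef2c, Tcf4, Rora and Npas3. The genes were taken by symbol from the GENCODE mouse annotation of mm10, and all 9 were found among 21755 protein-coding genes of chromosomes 1 to 19 and X. Factors of this kind bind DNA in the nucleus and set which genes a neuron transcribes. Several of them decide, during development, which layer or projection class a cortical neuron joins, and many stay active in mature neurons. Long genes that are transcribed in neural cells are known places of recurrent double-strand breaks, so the density of broken ends along such genes is of interest.

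The ends came from BLISS, an assay that repairs and tails the ends of double-strand breaks in fixed nuclei, joins them to adaptors, copies them by in vitro transcription and sequences them. The 6 libraries are of neurons sorted from the forebrain of CK-p25 mice, in which taking doxycycline away switches on p25, an activator of the kinase Cdk5, in forebrain neurons. The groups are Step2, Step1 and Con, with 2 libraries each, and all 6 libraries, Con included, carry the same genotype and the same 2 weeks of induction in their labels. The labels do not say what Step2, Step1 and Con are, nor whether replicates came from separate animals, so p-values here rest on how much these 6 libraries vary, and that variation may be only technical. The sorted cell type could not be checked by marker levels, because the assay counts DNA ends and not RNA.

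Read totals were 1526487 and 1480461 in Step2, 2403238 and 2043098 in Step1, and 2300995 and 2273508 in Con. The 5′ end of a read marked the break, and ends were what was counted. A library holds more reads than distinct ends, where an end is 1 position on 1 strand: reads per distinct end were 1.24 and 1.26 in Step2, 1.19 and 1.21 in Step1, and 1.29 and 1.42 in Con. Every gene was therefore counted with all reads and again with 1 read per position and strand. Median read length also differed, at 47 bases in both Step2 libraries, 48 in both Step1 libraries and 49 in both Con libraries, and its part in the results was not tested. Values below are shares of a library's reads outside 26 windows of 10 kb in which reads were piled up, so they place the ends along the genome and give no number of breaks per cell. CPM below is the usual depth-scaled count, taken over the reads outside these windows or over the distinct ends there.

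The genes are long, as their name as a group says, though not equally so. Protein-coding genes had a median length of 17.4 kb, and 6 of the 9 genes exceeded 300 kb. Sox5 (chromosome 6, 143828425 to 144781977, minus strand) spans 954 kb, Npas3 (chromosome 12, 53248677 to 54072175, plus strand) 823 kb and Rora (chromosome 9, 68653786 to 69388246, plus strand) 734 kb. Foxp1 (chromosome 6, 98925338 to 99522721, minus strand) spans 597 kb, Foxp2 (chromosome 6, 14901349 to 15441977, plus strand) 541 kb and Tcf4 (chromosome 18, 69343356 to 69689079, plus strand) 346 kb. The 3 shorter genes are Mef2c (chromosome 13, 83504034 to 83667080, plus strand) with 163 kb, Bcl11a (chromosome 11, 24078056 to 24174123, plus strand) with 96.1 kb and Bcl11b (chromosome 12, 107910403 to 108003602, minus strand) with 93.2 kb. Exons made up 0.729% of Npas3 and 13.7% of Bcl11a, the lowest and highest of the 9, so nearly all of the sequence measured is intron. GC content ran from 36.5% in Foxp2 to 50.5% in Bcl11b, against a median of 45.3% over protein-coding genes. Foxp1 shares part of its body and its strand with a second coding gene model, Gm20696, and reads there cannot be assigned to one of them. Sox5 overlaps 7 other annotated genes, none of them protein-coding.

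With all 6 libraries in the fit, no difference in ends between groups passed the test in any of the 9 genes. Together they held 20574 reads and 17092 distinct ends, in 4.35 Mb or 0.170% of the genome. Here and below, distinct ends over all libraries were counted within each library and then added. Counts were fitted with limma (voom) over all 13811 protein-coding genes that reached 10 reads in 2 or more libraries, and a gene was called when its Benjamini-Hochberg adjusted p was below 0.05. With all reads, 0 of 9 genes were called in Step1 over Con, where 0.123% of all genes tested were called, 0 of 9 in Step2 over Con, where 0.0941% were, and 0 of 9 in Step2 over Step1, where 0.0434% were. With 1 read per position the counts were again 0 of 9 in each comparison, beside 0.118%, 0.126% and 0.0315% of 12715 genes. A second form of the model, limma-trend, also called 0 of 9 in each. At an unadjusted p below 0.05 with all reads, 2 of 9 genes passed in Step1 over Con (7.08% of all genes), 1 of 9 in Step2 over Con (7.77%) and 0 of 9 in Step2 over Step1 (3.42%). Counted by distinct ends, 3 of 9 passed in Step1 over Con (8.23%), 1 of 9 in Step2 over Con (7.97%) and 0 of 9 in Step2 over Step1 (4.89%). Among 567 genes over 300 kb, which include 6 of the 9, the counts with all reads were 117, 131 and 26. By distinct ends they were 132, 155 and 44, in the same order of comparisons. The comparisons of Step1 and Step2 with Con share the same Con libraries, so they are not independent of each other.

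**Figure D1:**
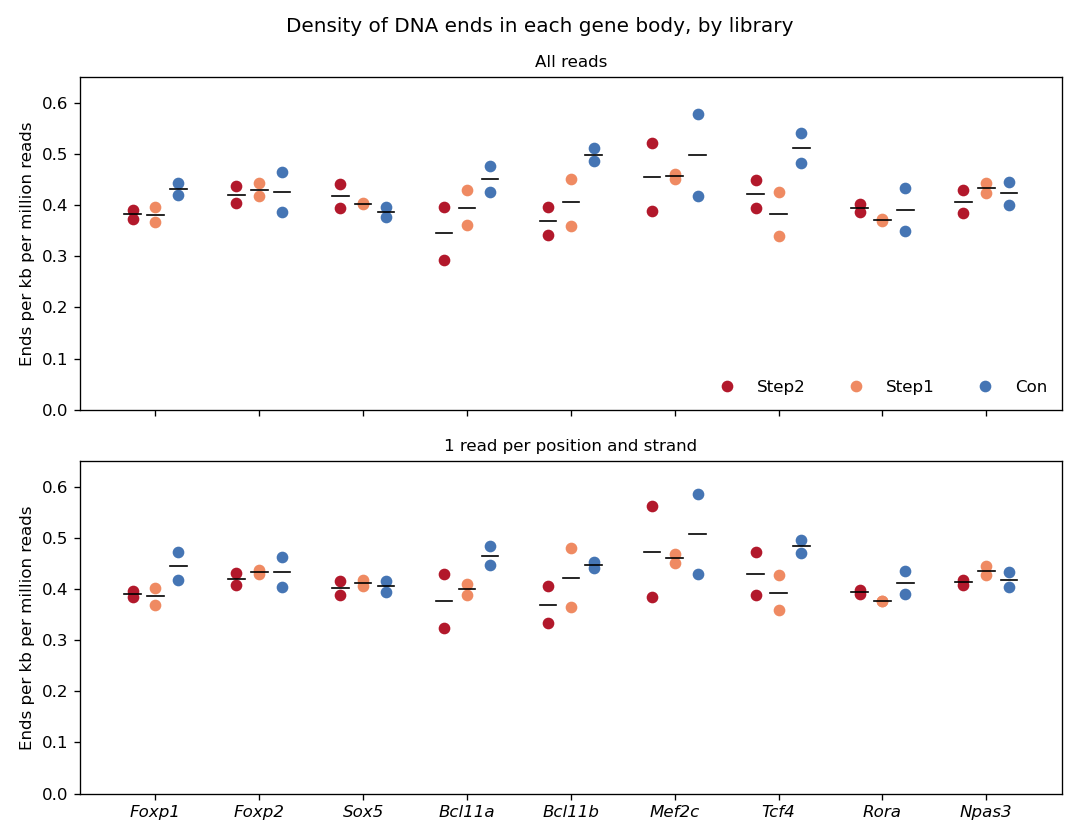
Density of ends, as CPM per kb of gene body (vertical axis), in each of the 6 libraries (points) for the 9 genes (horizontal axis), with the mean of each group as a bar, for all reads (top) and for 1 read per position and strand (bottom). All values lie between 0.293 and 0.586 CPM per kb; with all reads, both Con points of Foxp1, Bcl11b and Tcf4 lie above the 4 others.

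**Figure D2:**
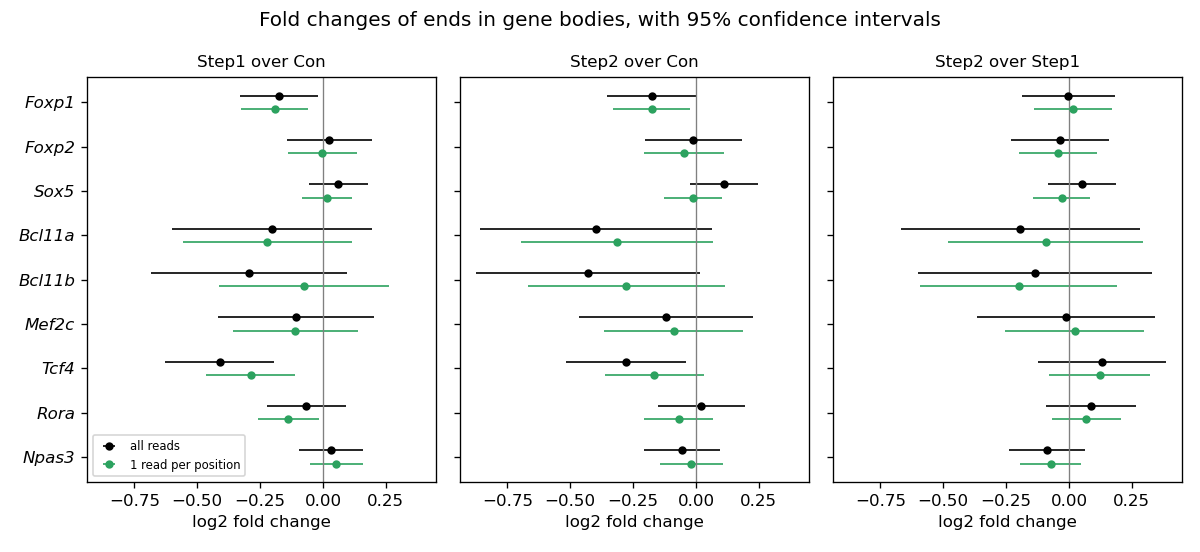
Log2 fold changes of ends in gene bodies from limma (horizontal axis) with 95% confidence intervals (lines) for the 9 genes (rows) and 3 comparisons (panels), with all reads in black and 1 read per position in green. In Step1 over Con, the intervals of Tcf4 and Foxp1 lie below 0 for both ways of counting, while most other intervals include 0.

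Foxp1 and Foxp2 encode forkhead repressors that can pair with each other; both act in the striatum and cortex, and Foxp2 is known for its role in vocal learning and speech. Foxp1 held 340 and 316 reads in Step2, 539 and 426 in Step1, and 553 and 579 in Con. In CPM this was 233 and 223 in Step2, 236 and 219 in Step1, and 251 and 265 in Con. Both Step2 and both Step1 libraries lay below both Con libraries, and the same order held with 1 read per position. The log2 fold change of Foxp1 was -0.17 ± 0.08 (SE) in Step1 over Con, with an adjusted p of 0.661 in limma, and -0.18 ± 0.09 in Step2 over Con, with an adjusted p of 0.643. With 1 read per position these values were -0.19 ± 0.07 (adjusted p = 0.368 in limma) and -0.18 ± 0.08 (adjusted p = 0.523). Foxp2 gave a different picture, with the Con libraries farthest apart. It held 345 and 309 reads in Step2, 546 and 438 in Step1, and 553 and 456 in Con. In CPM these were 236 and 218 in Step2, 239 and 226 in Step1, and 251 and 209 in Con, so the groups overlapped. Its log2 fold changes were 0.03 in Step1 over Con and -0.01 in Step2 over Con.

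Sox5 encodes an SRY-box factor that lacks an activation domain of its own and shapes the deep-layer neurons that project out of the cortex. The gene, the longest of the 9, held 614 and 532 reads in Step2, 874 and 748 in Step1, and 832 and 784 in Con. In CPM this was 421 and 375 in Step2, 383 and 385 in Step1, and 378 and 359 in Con. Both Step1 libraries lay above both Con libraries, while Step2 overlapped with each of the other groups. On the log2 scale the change was 0.06 ± 0.06 in Step1 over Con and 0.11 ± 0.07 in Step2 over Con, with adjusted p of 0.861 and 0.722 in limma. When each position counted once, the value in Step2 over Con was -0.01 ± 0.06 and all groups overlapped.

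Bcl11a and Bcl11b, also called Ctip1 and Ctip2, encode zinc finger repressors; Bcl11b directs the layer of neurons that project to the spinal cord, and Bcl11a acts in upper and deep layers. Both genes are short beside the others and rest on few reads, and their intervals are the widest of the 9. Bcl11a held 41 and 54 reads in Step2, 79 and 80 in Step1, and 90 and 100 in Con. In CPM these were 28.1 and 38.1 in Step2, 34.6 and 41.2 in Step1, and 40.8 and 45.8 in Con, so Step2 lay below Con and Step1 overlapped with both. The log2 fold change of Bcl11a was -0.20 ± 0.20 in Step1 over Con and -0.40 ± 0.23 in Step2 over Con, with a 95% interval of -0.86 to 0.06 for the second and an adjusted p of 0.716 in limma. Bcl11b held 54 and 45 reads in Step2, 96 and 65 in Step1, and 105 and 99 in Con. In CPM these were 37.0 and 31.7 in Step2, 42.1 and 33.5 in Step1, and 47.6 and 45.3 in Con, so both Step2 and both Step1 libraries lay below both Con libraries. Its change on the log2 scale was -0.29 ± 0.19 in Step1 over Con and -0.43 ± 0.22 in Step2 over Con, with a 95% interval of -0.88 to 0.02 and an adjusted p of 0.655 in limma for the second. With 1 read per position the values of Bcl11b were -0.08 ± 0.17 and -0.28 ± 0.20, and Step1 then overlapped with Con.

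Mef2c encodes a MADS-box activator that responds to neuronal activity and regulates synapse number. Its reads were 124 and 90 in Step2, 168 and 146 in Step1, and 150 and 206 in Con. In CPM it held 85 and 63.5 in Step2, 73.7 and 75.2 in Step1, and 68.1 and 94.3 in Con. The Step2 libraries and the Con libraries each spanned both Step1 libraries, so no order of the groups was seen. The log2 fold changes were -0.11 ± 0.15 in Step1 over Con and -0.12 ± 0.17 in Step2 over Con.

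Tcf4 encodes a basic helix-loop-helix E protein that pairs with proneural factors and is linked to intellectual disability in humans. Among the 9 genes it had the smallest p of any comparison. It held 226 and 193 reads in Step2, 336 and 228 in Step1, and 368 and 408 in Con. In CPM this was 155 and 136 in Step2, 147 and 117 in Step1, and 167 and 187 in Con. Both Step2 and both Step1 libraries lay below both Con libraries, and the Step2 and Step1 libraries overlapped. The log2 fold change of Tcf4 was -0.41 ± 0.11 in Step1 over Con, with a 95% interval of -0.63 to -0.19, an unadjusted p of 0.000423 and an adjusted p of 0.136 in limma. In Step2 over Con it was -0.28 ± 0.12, with an adjusted p of 0.570. The call depends on a single library: without Con replicate 1 the change of Tcf4 in Step1 over Con was -0.49 ± 0.12 with an adjusted p of 0.0208 in limma, whereas without Con replicate 2 it was -0.33 ± 0.12 with an adjusted p of 0.594. Without Con replicate 1, 148 of 13273 genes tested were called in this comparison, against 17 of 13811 with all libraries. Across all alternatives tried, the adjusted p of this comparison in limma ran from 0.0208 to 0.971. Con replicate 2 also held 1 intronic position of Tcf4 with 31 reads and no read in any other library. Without that position, a choice made after seeing the data, the change was -0.35 ± 0.11 with an adjusted p of 0.343 in limma. With 1 read per position, Tcf4 held 200 and 156 distinct ends in Step2, 297 and 208 in Step1, and 288 and 273 in Con. In CPM of distinct ends these were 164 and 134 in Step2, 147 and 124 in Step1, and 162 and 172 in Con, and Step2 then overlapped with Con. The change was -0.29 ± 0.09 in Step1 over Con, with an adjusted p of 0.246 in limma, and -0.17 ± 0.10 in Step2 over Con. Tcf4 and Foxp1 were the 2 genes past an unadjusted p below 0.05 in Step1 over Con with all reads.

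Rora encodes a nuclear receptor that binds response elements as a monomer and is present in the neurons of the thalamus and in cortical layers that receive thalamic input. It held 415 and 418 reads in Step2, 624 and 527 in Step1, and 700 and 559 in Con. In CPM this was 284 and 295 in Step2, 274 and 271 in Step1, and 318 and 256 in Con. Both Step2 libraries lay above both Step1 libraries, and the Con libraries lay on either side of all 4. The log2 fold change was 0.09 ± 0.09 in Step2 over Step1, with an adjusted p of 0.999 in limma, and 0.02 ± 0.09 in Step2 over Con. With 1 read per position Rora was lower in Step1 than in Con without overlap, by a log2 fold change of -0.14 ± 0.06 and an adjusted p of 0.527 in limma.

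Npas3 encodes a basic helix-loop-helix PAS factor known in mouse for its role in hippocampal neurogenesis. Its reads were 515 and 449 in Step2, 795 and 708 in Step1, and 809 and 720 in Con. In CPM it held 353 and 317 in Step2, 349 and 365 in Step1, and 367 and 330 in Con. The 3 groups overlapped with each other. The log2 fold changes of Npas3 were 0.03 ± 0.06 in Step1 over Con, -0.06 ± 0.07 in Step2 over Con and -0.09 ± 0.07 in Step2 over Step1.

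Seen over the 9 genes with all reads, 3 were lower in Step1 than in Con with no overlap between libraries (Foxp1, Bcl11b and Tcf4), beside 21.3% of all genes tested, and 1 was higher (Sox5), beside 15.4%. In Step2 against Con, 4 were lower (Foxp1, Bcl11a, Bcl11b and Tcf4), beside 21.7% of all genes, and 0 were higher, beside 15.2%. In Step2 against Step1, 1 was higher (Rora), beside 16.1%, and 0 were lower, beside 17.9%. With repeated reads removed, 4 were lower in Step1 than in Con (Foxp1, Bcl11a, Tcf4 and Rora), beside 23.8%, and 3 were lower in Step2 than in Con (Foxp1, Bcl11a and Bcl11b), beside 23.1%. In Step2 against Step1 with 1 read per position, Npas3 was lower, beside 16.9% of all genes, and Rora higher, beside 17.6%. The log2 fold change was below 0 in 6 of 9 genes in Step1 over Con, where 54.7% of all genes were below 0, and in 7 of 9 in Step2 over Con, where 54% were. In Step2 over Step1 it was below 0 in 6 of 9, beside 50.2%. Counted by distinct ends, it was below 0 in 7 of 9 genes in Step1 over Con (58.5% of all genes), 9 of 9 in Step2 over Con (56%) and 5 of 9 in Step2 over Step1 (48.2%). The median change of the 9 genes was -0.11 in Step1 over Con and -0.12 in Step2 over Con, against -0.04 over all genes tested in both. Genes over 300 kb had medians of -0.07 and -0.08 in the same comparisons, with 7 and 5 of 567 called lower and 0 called higher. Of these long genes, 73.7% and 74.4% were below 0 with all reads, and 76.5% and 76.4% by distinct ends. The medians by distinct ends were -0.11 and -0.09 for the 9 genes, and -0.07 and -0.09 for the long genes. The fold changes of the 9 genes were not tested as a set.

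The 9 gene bodies together took 0.183% and 0.170% of reads in Step2, 0.178% and 0.173% in Step1, and 0.189% and 0.179% in Con. The 95% Wilson intervals of these shares, which cover counting error only, were 0.176% to 0.190% and 0.163% to 0.177% in Step2, 0.172% to 0.183% and 0.168% to 0.179% in Step1, and 0.183% to 0.195% and 0.174% to 0.185% in Con. Both Step1 libraries lay below both Con libraries, and the Step2 libraries overlapped with each of the other groups. Of distinct ends, the 9 genes took 0.181% and 0.172% in Step2, 0.180% and 0.176% in Step1, and 0.189% and 0.185% in Con, so that both Step2 and both Step1 libraries then lay below Con. The mean difference in the share of reads was -0.00833 percentage points for Step1 minus Con (exact two-sided permutation test, p = 0.333), -0.00744 for Step2 minus Con (exact p = 0.667) and 0.000886 for Step2 minus Step1 (exact p = 1). With 2 libraries against 2 there are 6 assignments, and 0.333 is the smallest p this test can give. With 1 library left out, the difference ran from -0.0131 (without Con replicate 2) to -0.0035 (without Con replicate 1) for Step1 minus Con. For Step2 minus Con it ran from -0.0142 (without Step2 replicate 1) to -0.00064 (without Step2 replicate 2), and was -0.00262 without Con replicate 1 and -0.0123 without Con replicate 2. For distinct ends the difference was -0.00898 for Step1 minus Con and -0.0100 for Step2 minus Con (exact p = 0.333 for each). Read names showed 2 sequencing runs in every library, and within runs the difference was -0.0164 and -0.00239 for Step1 minus Con and -0.00985 and -0.00612 for Step2 minus Con.

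A comparison inside each library needs no library size: the density of ends in the 9 gene bodies was divided by that in the 200 kb on each side. The ratio was 1.03 and 0.956 in Step2, 0.982 and 0.988 in Step1, and 1.05 and 1.08 in Con. Gene bodies were thus slightly denser in ends than their surroundings in Con and close to them in Step2 and Step1. The mean difference was -0.0735 for Step2 minus Con and -0.0810 for Step1 minus Con, with no overlap between libraries in either, at an exact two-sided permutation p of 0.333, the smallest possible. The size of the Step2 difference depends on the flank: with 100 kb on each side it was -0.0317 for Step2 minus Con, with overlap (exact p = 0.667), and -0.0645 for Step1 minus Con, without overlap. It also depends on the library, at -0.110 for Step2 minus Con without Step2 replicate 1 and -0.0368 without Step2 replicate 2. Between Step2 and Step1 the mean ratio differed by 0.0075 (exact p = 1). For distinct ends the ratio was 1.02 and 0.974 in Step2, 0.994 and 1.00 in Step1, and 1.08 and 1.10 in Con. The other 561 protein-coding genes over 300 kb, summed in the same way, had ratios of 0.929 and 0.931 in Step2, 0.952 and 0.952 in Step1, and 1.02 and 1.05 in Con. Con was highest in these genes too, so its place was not particular to the 9 genes. Both Step2 libraries of these long genes lay below both Step1 libraries. In the 9 genes the Step2 libraries lay on either side of Step1. Within sequencing runs 1 and 2, the difference for the 9 genes was -0.110 and -0.0450 for Step2 minus Con and -0.123 and -0.0500 for Step1 minus Con. In run 2 the Step2 and Con libraries overlapped (exact p = 0.667), and with flanks of 100 kb the differences in that run were 0.0385 for Step2 minus Con and 0.0211 for Step1 minus Con, both with overlap.

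**Figure D3:**
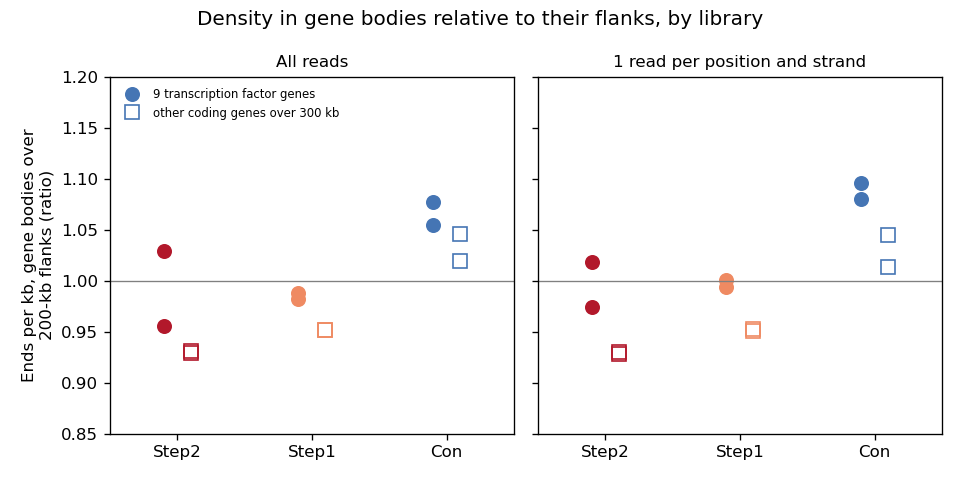
Ends per kb in gene bodies divided by ends per kb in the 200 kb on each side (vertical axis, which starts above 0) for each library, grouped as Step2, Step1 and Con, for the 9 genes summed (filled circles) and for the other 561 protein-coding genes over 300 kb summed (open squares), with all reads (left) and 1 read per position (right). Both sets of genes have their highest ratios in the 2 Con libraries, 1.05 and 1.08 for the 9 genes with all reads.

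The same ratio was taken for single genes. For Foxp1 it was 0.953 and 0.897 in Step2, 1.01 and 0.948 in Step1, and 1.26 and 1.22 in Con. The Con libraries lay above all 4 others. The ratio of Tcf4 was 0.905 and 0.700 in Step2, 0.888 and 0.694 in Step1, and 0.934 and 1.41 in Con, so Con replicate 2 stood apart from all others. For Bcl11b it was 1.19 and 0.890 in Step2, 1.23 and 1.05 in Step1, and 1.44 and 1.36 in Con, again with both Con libraries highest. By distinct ends, Bcl11b had ratios of 0.965 and 1.07 in Step2, 1.27 and 1.04 in Step1, and 1.21 and 1.14 in Con, so a Step1 library was then highest. In Npas3, Sox5, Foxp2, Bcl11a, Mef2c and Rora, the Con libraries did not both lie above all others with all reads. The ratios of Npas3 were 1.16 and 1.04 in Step2, 1.10 and 1.06 in Step1, and 1.07 and 1.03 in Con. Those of Mef2c were 1.35 and 1.04 in Step2, 1.08 and 1.17 in Step1, and 1.05 and 1.15 in Con. By distinct ends, both Con libraries lay above all others in Foxp1, Tcf4 and Rora only. Tcf4 then had 0.969 and 1.21 in Con, beside 0.968 in Step2 replicate 1.

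Densities per kb allow the genes to be set against each other. Among 2805 protein-coding genes of at least 90 kb, ranked by CPM of distinct ends per kb, Mef2c stood at percentile 95.8 in Step2, 95.5 in Step1 and 98.7 in Con. Its density was 0.473 in Step2, 0.460 in Step1 and 0.507 in Con, where the medians over these genes were 0.386, 0.388 and 0.404. The libraries of Mef2c disagreed, with 0.562 and 0.384 in Step2, 0.469 and 0.450 in Step1, and 0.429 and 0.586 in Con, and Step2 replicate 2 lay below the median of these genes in Step2. Tcf4 stood at percentile 84.0 in Step2, 55.3 in Step1 and 96.3 in Con. Foxp2 was at 78 in Step2, 87.0 in Step1 and 76.4 in Con, and Npas3 at 73.5, 88.9 and 62.9 in the same order. Bcl11a was at 40.6 in Step2, 61.7 in Step1 and 91.7 in Con, and Bcl11b at 33.5, 81.6 and 84.2. Libraries of these genes, which rest on few ends, also lay on both sides of a group's median. Bcl11a had densities of 0.323 and 0.429 in Step2, and Bcl11b 0.479 and 0.365 in Step1. In Con, both libraries of each lay above the median. Rora was at 57.5 in Step2, 37.4 in Step1 and 58.2 in Con, and Sox5 at 64.2, 73.1 and 51.8. Foxp1 was at 54.3 in Step2, 47.4 in Step1 and 83.2 in Con. By distinct ends Mef2c had the highest percentile of the 9 genes in each group, but with all reads Tcf4, at 97.6, and Bcl11b, at 96.5, stood above Mef2c, at 96.4, in Con. These ranks are of group means of 2 libraries, and differences between neighbouring ranks were not tested.

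Pooled over the 9 genes, ends were about as dense in exons and near transcript starts as elsewhere, while single genes varied. Distinct ends per kb were 1.04 times as dense in exons as in introns over the 9 genes, and 1.06 times as dense within 1 kb of an annotated transcript start as elsewhere in the body. By gene, the first ratio ran from 0.808 in Foxp2 to 1.21 in Tcf4 and the second from 0.736 in Bcl11a to 1.53 in Rora. By library, the ratio of exons to introns was 0.870 and 1.03 in Step2, 1.09 and 0.942 in Step1, and 1.08 and 1.18 in Con, so Step1 overlapped with both other groups and Step2 lay below Con; this was not tested. The share of distinct ends on the strand of the gene was 50.3%. Within 1 kb of the 9 annotated gene starts lay 78 distinct ends over all libraries, with 9 and 16 in Step2, 16 and 15 in Step1, and 12 and 10 in Con. Relative to the body, the density there was 0.979 and 1.92 in Step2, 1.07 and 1.23 in Step1, and 0.865 and 0.820 in Con. In the other 2796 protein-coding genes of at least 90 kb this ratio was 1.48 and 1.58 in Step2, 1.29 and 1.49 in Step1, and 1.45 and 1.86 in Con. The counts at the 9 starts are small, and this ratio was not tested between groups. Reads with the top mapping quality score of 42 made up 89.97% of reads in the 9 genes.

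**Figure D4:**
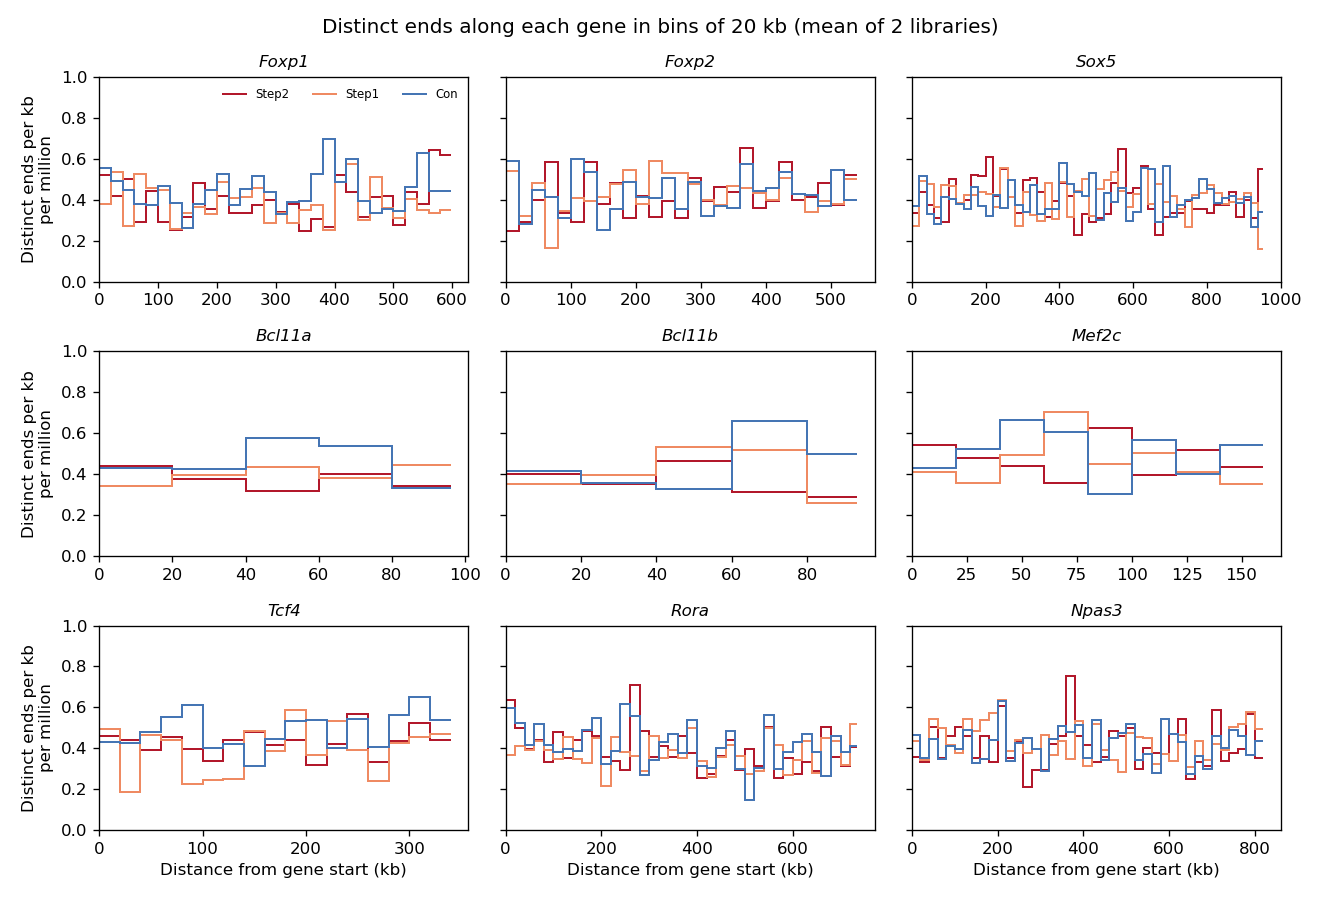
CPM of distinct ends per kb (vertical axis) in bins of 20 kb along each of the 9 genes (panels), by distance from the gene start in kb (horizontal axis), as the mean of 2 libraries for Step2, Step1 and Con; a last bin under 10 kb is left out. The lines of the 3 groups cross throughout, and the highest bin of any gene was 0.752, in Npas3 in Step2.

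The promoters of 3 genes are shown because Npas3, Mef2c and Foxp1 had, Tcf4 aside, the most distinct ends within 1 kb of the annotated start, with 16, 10 and 9 over all libraries. RefSeq (GRCm38.p6) listed promoters for 7 of the 8 genes other than Tcf4, whose sequence is not shown. The choice of genes used the GENCODE starts, from which the RefSeq starts of Npas3 and Foxp1 shown here differ. For Foxp1 and Mef2c, RefSeq also listed promoters farther inside the gene, which are not shown. Those held 11 and 10 distinct ends within 1 kb of their starts in Foxp1, and 10 and 8 in Mef2c. The 250 bases before the RefSeq start are given 5′ to 3′ on the gene's strand, with capitals at bases where at least 1 read of any library began. They lie at chr12:53248182-53248431 (plus strand) for Npas3, chr13:83503784-83504033 (plus strand) for Mef2c and chr6:99520994-99521243 (minus strand, inside the longer GENCODE body) for Foxp1.
Npas3: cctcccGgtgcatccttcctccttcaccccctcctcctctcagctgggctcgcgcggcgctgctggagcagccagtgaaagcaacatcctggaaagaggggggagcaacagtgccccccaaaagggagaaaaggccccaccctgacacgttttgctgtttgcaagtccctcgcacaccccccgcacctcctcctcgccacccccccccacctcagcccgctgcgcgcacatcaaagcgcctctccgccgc
Mef2c: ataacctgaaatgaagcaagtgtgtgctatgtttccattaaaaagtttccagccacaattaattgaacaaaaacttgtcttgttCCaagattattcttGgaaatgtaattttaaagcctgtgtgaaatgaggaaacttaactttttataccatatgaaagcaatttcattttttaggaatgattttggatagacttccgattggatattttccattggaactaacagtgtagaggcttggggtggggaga
Foxp1: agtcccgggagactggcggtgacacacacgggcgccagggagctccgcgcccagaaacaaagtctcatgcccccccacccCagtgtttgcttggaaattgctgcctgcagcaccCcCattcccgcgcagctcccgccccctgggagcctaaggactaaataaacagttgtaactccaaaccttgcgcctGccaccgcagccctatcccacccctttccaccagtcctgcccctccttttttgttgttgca
The Npas3 window held 1 such base, the Mef2c window 3 bases with 5 reads and the Foxp1 window 4 bases with 4 reads. At the starts of Npas3, distinct ends within 1 kb of the RefSeq start were 2 and 5 in Step2, 4 and 3 in Step1, and 0 and 0 in Con. For Mef2c these were 3 and 2 in Step2, 2 and 0 in Step1, and 3 and 0 in Con. For Foxp1 they were 0 and 1 in Step2, 3 and 1 in Step1, and 2 and 2 in Con. These counts are low in every library. One further position near the Npas3 start, 0.804 kb inside the gene, held 10 reads, 9 in Step1 replicate 1 and 1 in Step1 replicate 2. GC content of the windows was 66.4% for Npas3, 33.6% for Mef2c and 60.8% for Foxp1.

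The positions with most reads were nearly all private to a library. In each of the 9 genes the densest position lay in an intron. It held 31 of 1759 reads in Tcf4, 20 of 3243 in Rora, 19 of 2753 in Foxp1, 15 of 4384 in Sox5 and 12 of 464 in Bcl11b. In Npas3 it held 11 reads, in Foxp2 and Mef2c 10 each and in Bcl11a 9, where a second position also held 9. In 7 genes all its reads came from 1 library. In Rora 19 of 20 came from Step2 replicate 2, and in Bcl11b 11 of 12 from Con replicate 1. Con replicate 2, the library with most reads per distinct end, alone held the densest position of Foxp1, Sox5, Bcl11a, Mef2c and Tcf4. Whether such stacks are copies of 1 molecule or repeated breaks was not tested.

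**Figure D5:**
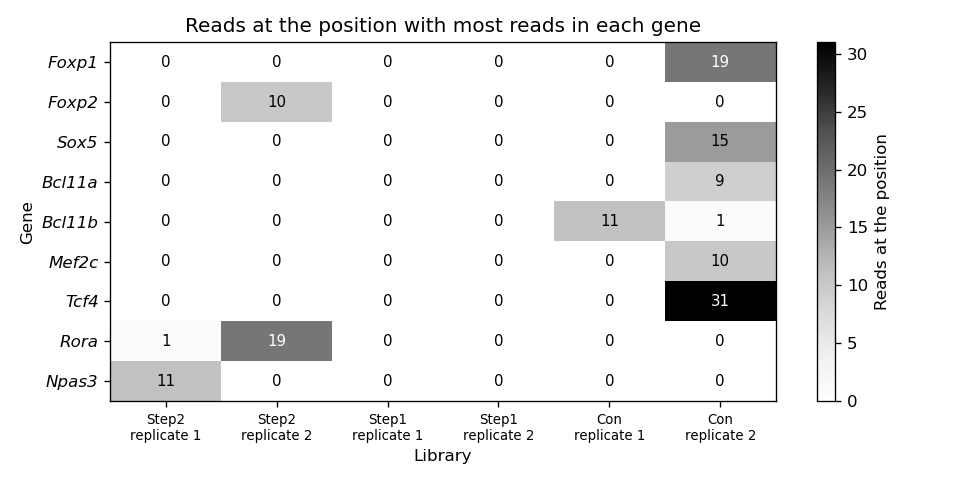
Number of reads at the position and strand with most reads in each of the 9 genes (rows), in each of the 6 libraries (columns); darker cells hold more reads. Each row has its reads in 1 library, or in 2 with 1 read in the second, and neither Step1 library holds any.

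The surroundings of the densest position are shown for the 3 genes, Tcf4 aside, in which it held the largest share of the gene's reads. Each is 61 bases, 5′ to 3′ on the strand of the reads, with a capital at the base where the reads began. They are chr12:107994544-107994604 (minus strand) in Bcl11b, chr11:24119896-24119956 (plus strand) in Bcl11a and chr13:83552256-83552316 (plus strand) in Mef2c, all GRCm38.
Bcl11b: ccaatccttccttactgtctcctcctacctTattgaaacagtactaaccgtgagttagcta
Bcl11a: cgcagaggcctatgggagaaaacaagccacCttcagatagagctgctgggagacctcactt
Mef2c: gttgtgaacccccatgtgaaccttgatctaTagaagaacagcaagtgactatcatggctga
The GC content of these stretches was 42.6% in Bcl11b, 54.1% in Bcl11a and 44.3% in Mef2c.

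Windows of 100 kb gave a finer view along the longer genes, while Bcl11a and Bcl11b are shorter than a window. Windows were kept whole, so those at the edge of a gene also counted ends outside its body. Of 45 windows with their centre in a gene of the 9, 0 were called by limma in Step1 over Con (0.0158% of 25381 windows tested), 0 in Step2 over Con (0.0906%) and 0 in Step2 over Step1 (0.0433%). At an unadjusted p below 0.05, 4 windows passed in Step1 over Con (7.27%), 3 in Step2 over Con (8.25%) and 1 in Step2 over Step1 (4.29%). By distinct ends, the calls were again 0 in each comparison, beside 0%, 0.0197% and 0.00789% of windows, and 6, 1 and 2 windows passed at an unadjusted p below 0.05, beside 8.28%, 8.12% and 5.51%. The window with the smallest p in Step1 over Con lay in Npas3 (chromosome 12, 53400001 to 53500000). It held 64 and 52 reads in Step2, 124 and 107 in Step1, and 115 and 60 in Con, so Con replicate 2 was low. Its log2 fold change was 0.53 ± 0.21 with an adjusted p of 0.589 in limma; without Con replicate 1 it was 0.99 ± 0.25 with an adjusted p of 0.0243, in a fit that called 176 of 25364 windows (0.694%). In Step2 over Con the smallest p was in Tcf4 (chromosome 18, 69500001 to 69600000), with 62 and 56 reads in Step2, 111 and 87 in Step1, and 129 and 137 in Con. The change was -0.56 ± 0.22 with an adjusted p of 0.426 in limma, and -0.19 ± 0.18 with 1 read per position; the window holds the position with 31 reads. In Step2 over Step1 it was in Rora (chromosome 9, 68900001 to 69000000), with 73 and 78 reads in Step2, 76 and 66 in Step1, and 106 and 72 in Con, and a change of 0.64 ± 0.21 with an adjusted p of 0.999 in limma. That window holds the Rora position with 20 reads, and with 1 read per position its change was 0.39 ± 0.19. Among distinct ends, the smallest p in both comparisons with Con lay in Foxp1. The window at chromosome 6, 98900001 to 99000000, had a log2 fold change of -0.54 ± 0.17 in Step1 over Con (adjusted p = 0.321 in limma), and that at 99100001 to 99200000 had one of -0.54 ± 0.19 in Step2 over Con (adjusted p = 0.403).

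Other genes of the same kind were counted from lists chosen with earlier results known. Of 72 other cortical transcription factor genes, 55 were tested, and 0 were called in any comparison. Their median log2 fold change was -0.11 in both comparisons with Con, and 39 of 55 (70.9%) were below 0 in each. Over all genes tested, 54.7% in Step1 over Con and 54% in Step2 over Con were below 0. Of genes over 300 kb, 73.7% and 74.4% were. The smallest p was in Zeb2 in Step1 over Con, at -0.53 ± 0.16 with an adjusted p of 0.384 in limma, in Zbtb20 in Step2 over Con, at -0.27 ± 0.08 with an adjusted p of 0.233, and in Zeb1 in Step2 over Step1, at -0.46 ± 0.18 with an adjusted p of 0.999. Of 14 paralogs of the 9 genes, 13 were tested and 0 were called in any comparison, with medians of -0.10 in Step1 over Con, -0.07 in Step2 over Con and -0.01 in Step2 over Step1. Tcf12, a relative of Tcf4, had the smallest p among them in Step1 over Con, at -0.34 ± 0.13, Sox6, a relative of Sox5, in Step2 over Con, at 0.24 ± 0.09, and Mef2a, a relative of Mef2c, in Step2 over Step1, at -0.34 ± 0.19. Their adjusted p in limma were 0.556, 0.473 and 0.999.

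Marker genes of cell types that a sort of neurons could hold gave 0 calls in each comparison among 3 of 5 excitatory neuron, 2 of 5 inhibitory neuron, 5 of 5 astrocyte, 5 of 5 oligodendrocyte, 3 of 5 microglia and 4 of 5 vascular genes tested. With all reads, their median log2 fold changes in Step2 over Con were -0.43, 0.31, 0.35, -0.36, 0.08 and 0.21, in the same order of lists. In Step1 over Con these medians were -0.08, 0.21, 0.22, 0.02, -0.16 and 0.27. By distinct ends, with 2 excitatory neuron genes tested, the medians in Step2 over Con were -0.33, 0.30, 0.11, -0.66, -0.04 and 0.26. In Step1 over Con they were then -0.02, 0.33, 0.13, 0.11, -0.15 and 0.25. Some of these medians rest on 2 or 3 genes. These are levels of ends in DNA that all cell types carry, and the part of other cell types in the changes of the 9 genes was not tested.

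Over the 6 libraries, the genes whose distinct ends varied most like the mean of the 9 were Sema5a (Pearson r = 0.966), Fat3 (r = 0.963) and Grm7 (r = 0.961), out of 561 other protein-coding genes over 300 kb. The values compared were log2 CPM, so both values of a point come from the same library and were divided by the same total. This is a likeness over 6 points, and it carries no test.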

How the data were processed

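BLISS reads of 6 libraries were used as deposited, 1 line per aligned read with a position, a strand and a score. The deposited score is the aligner's mapping quality, which ran from 11 to 42. Bowtie2, SAMtools, bedtools and the mm10 build are named in the submitters' processing notes; their versions were not stated in any source at hand. The deposited names mark the reads as deduplicated, and how is not given.

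From these reads, 5′ ends were counted here in GENCODE gene bodies and in windows of 100 kb on chromosomes 1 to 19 and X. Y and mitochondrial reads were not used. Mitochondrial reads numbered 308 and 422 in Step2, 816 and 869 in Step1, and 3104 and 5820 in Con. Library sizes left out 26 windows of 10 kb with over 20 times the median of 45 reads. Those windows held 4.41% and 4.20% of reads in Step2, 5.06% and 4.92% in Step1, and 4.09% and 3.71% in Con. The groups thus differed in both respects, and the part of this in the results was not tested. The resulting counts were tested with limma 3.58.1 (voom, R 4.3.3) over all 3 groups without a block, for genes that reached 10 reads in 2 or more libraries. Single values were tested with exact permutation tests over all assignments of libraries, and Wilson intervals were computed with SciPy 1.17.1. Counting used Python 3.11.15, numpy 2.4.6 and pandas 2.3.3, and figures matplotlib 3.10.9. The fits were tested on simulated data. Wilson intervals of shares cover counting error only, and intervals of fold changes come from the limma fits.

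The members and lists were chosen with earlier results of these data known. All 9 genes are named; of other lists, the gene, and of windows, the window, with the smallest p in each comparison is named where none was called. Likeness was ranked by Pearson correlation over the 6 libraries. Alternatives varied scaling, count minimum, reads per position, mapping quality, model, replicate block, GC, sequencing run, piled-up windows, flank size, groups in the fit and each library in turn. Same-numbered replicates did not deviate together, with correlations of 0.0327, 0.0050 and -0.0051 between pairs of groups.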

Additional observations from a re-analysis of the deposited data

How the results depend on the processing

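Over 21 alternatives for each of 9 genes, 179 of 189 log2 fold changes in Step1 over Con, 173 in Step2 over Con and 167 in Step2 over Step1 kept their sign and their side of the threshold. Some alternatives could hardly move a value. Leaving out piled-up windows did not change the counts of the 9 genes. Dropping a library of the group not compared left all compared libraries in place. Tcf4 in Step1 over Con without Con replicate 1 was the 1 value newly called; leaving out 1 library at a time moved it between -0.59 and -0.26. Leaving out libraries gave 0 to 1 genes and 0 to 1 windows called among the 9 genes in Step1 over Con. The number of all genes called was 17, 13 and 6 in Step1 over Con, Step2 over Con and Step2 over Step1, and ran over 4 to 38, 3 to 43 and 1 to 11 under other settings, and 2 to 148, 1 to 106 and 2 to 8 with a library left out; 148 and 106 are without Con replicate 1. With the replicate number as a block, all genes called were 38, 43 and 11, members called stayed at 0, and Tcf4 in Step1 over Con was -0.40 ± 0.10 (adjusted p = 0.0544 in limma); the labels do not say that a number marks a shared animal or batch.

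These values turned sign. With 1 read per position, Foxp2 in Step1 over Con was -0.0034, Sox5 in Step2 over Con -0.0133 and Rora -0.0689, and in Step2 over Step1 Foxp1 was 0.0158, Sox5 -0.0293 and Mef2c 0.0221. Foxp2 in Step2 over Con was 0.0386 under median-of-ratios scaling, 0.0310 under TMM and 0.0252 with GC removed. In Step2 over Step1, Foxp1 was 0.0085 under median-of-ratios scaling, 0.0021 under TMM and 0.0021 in limma-trend, and Mef2c 0.0174 at mapping quality of at least 30 and 0.0012 with GC removed. In run 1, Npas3 was -0.0079 in Step1 over Con, Foxp2 0.13 in Step2 over Con, and in Step2 over Step1 Foxp2 0.0597, Bcl11a 0.16 and Mef2c 0.0834. In run 2, Foxp2 was -0.0038 and Mef2c 0.0092 in Step1 over Con, and Foxp1 0.0040 in Step2 over Con and 0.0539 in Step2 over Step1. Without the densest position of each gene, a setting chosen after seeing the data, Rora was -0.0132 in Step2 over Con. The share of reads differed between Step2 and Step1 by -0.00105 with 1 read per position, -0.000845 at mapping quality of at least 30 and -0.00372 in run 2, and the body over flank ratio by -0.000989 with 1 read per position and -0.00473 with 500-kb flanks. The cause was not tested.

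With 1 library left out, log2 fold changes in Step2 over Step1 ran from -0.41 to 0.0254 in Bcl11a, -0.29 to 0.0391 in Bcl11b, -0.0509 to 0.0560 in Foxp1, -0.10 to 0.0217 in Foxp2, -0.22 to 0.19 in Mef2c, -0.0332 to 0.13 in Sox5 and -0.0180 to 0.31 in Tcf4. In Step1 over Con they ran from -0.11 to 0.16 in Foxp2, -0.34 to 0.13 in Mef2c, -0.0456 to 0.11 in Npas3 and -0.22 to 0.0906 in Rora, and in Step2 over Con from -0.14 to 0.12 in Foxp2, -0.35 to 0.11 in Mef2c, -0.14 to 0.0219 in Npas3 and -0.13 to 0.18 in Rora. Between Step2 and Step1 the body over flank ratio then differed by -0.0292 to 0.0442 and the share by -0.00591 to 0.00768. A group left with 1 library took its spread from the rest. Bcl11a and Bcl11b, with 41 to 105 reads a library, had the widest intervals.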
